A study of Mus musculus with 10 samples.

Results

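The retained regions are stretches of open chromatin that had a peak in all 3 proliferating wild-type libraries, in none of the 3 differentiating wild-type libraries, and in at least 1 of the 2 differentiating libraries without p27. They were chosen by the presence of deposited ATAC-seq peaks, after the peaks of all 10 libraries had been merged where they overlapped and the sex chromosomes had been set aside. Of 133147 merged autosomal regions, 56427 had a peak in all 3 proliferating wild-type lists. In wild type 4133 of these had no peak after mitogen withdrawal, and they are called closing regions here. Of the closing regions 929 were retained, which is 22.5% (95% exact binomial interval 21.2 to 23.8, covering counting error only), and the other 3204 were not retained. The 929 were 1.65% of the regions with a peak in all 3 proliferating wild-type lists. These counts follow from the rule and were not tested.

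The study addressed how p27, the product of Cdkn1b and an inhibitor of cyclin-dependent kinases, takes part in gene repression when adult neural progenitors leave the cell cycle. Cultured neural stem cells, isolated from the brain subependymal zone at an age of 10 weeks, were assayed in 4 groups. WT PRO (n = 3) and p27KO PRO (n = 2) were neurospheres grown with EGF at 20 ng/ml and FGF at 10 ng/ml. WT DIFF (n = 3) and p27KO DIFF (n = 2) were cells seeded for 2 days and taken 24 h after the mitogens were withdrawn, on Matrigel and in medium with 2% FBS. The labels give 3 days of growth for the proliferating spheres, while the study's text also names a longer time, so this was not settled. The p27KO cells carried a constitutive deletion of Cdkn1b, so that p27 was also lacking in the proliferating cultures. Each library was made from 50000 cells. No source used here states whether replicates came from separate animals, so the spread between them may in part be technical.

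In ATAC-seq a transposase cuts DNA where nucleosomes leave it exposed, and peaks mark promoters and enhancers that are open in many of the cells. In progenitors kept dividing by EGF and FGF, receptor signalling through ERK reaches enhancers in part through AP-1, a dimer of FOS and JUN proteins that binds the letters TGANTCA. Once mitogens are removed, p27 rises and halts the cyclin-dependent kinases, and progenitors turn to neuronal or glial differentiation. Peak presence is a threshold call, so a region without a peak may still be partly open. In bulk chromatin, fewer cells with an open region and less opening per cell cannot be told apart.

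The sequences below show what a retained region looks like beside closing regions that were not retained. Each is 201 bases of GRCm38, plus strand, centred on the strongest summit. Letters in capitals match one of 10 motifs searched on both strands, of which those seen here are AP-1 (TGANTCA), an E-box (CAGCTG), an NFI half-site (TTGGCA), KLF/SP (GGGCGG), TEAD (GGAATG) and SOX (ACAATGG), each also written as its reverse complement. The others were ETS (CCGGAA), homeobox (TAATTA), E2F (GGCGGGA) and a CTCF core (CTNGTGGC), and neighbouring KLF/SP, E2F and TEAD letters can overlap. A match in capitals is a description of letters and not of a bound site. Fam169a, Ldb2 and Sh3bgrl2 are among the 4 highest-ranking of the 140 retained regions with a peak in every library but WT DIFF (ranked by the weakest of their peaks), and each is named for the protein-coding gene with the nearest start site. Ldb2 is the only one of these 3 with AP-1 letters. Anxa11 is a retained promoter, and Egfr carries none of the 10 motifs.
Fam169a, chr13:97051252-97051452: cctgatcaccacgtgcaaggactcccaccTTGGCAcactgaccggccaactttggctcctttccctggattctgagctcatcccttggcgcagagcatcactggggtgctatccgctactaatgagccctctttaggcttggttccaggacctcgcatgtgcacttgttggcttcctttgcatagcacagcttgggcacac
Ldb2, chr5:45102808-45103008: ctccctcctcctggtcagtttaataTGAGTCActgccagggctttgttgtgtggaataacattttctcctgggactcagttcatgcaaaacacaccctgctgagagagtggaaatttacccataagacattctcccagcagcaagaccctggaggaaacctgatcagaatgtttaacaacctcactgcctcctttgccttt
Sh3bgrl2, chr9:83648836-83649036: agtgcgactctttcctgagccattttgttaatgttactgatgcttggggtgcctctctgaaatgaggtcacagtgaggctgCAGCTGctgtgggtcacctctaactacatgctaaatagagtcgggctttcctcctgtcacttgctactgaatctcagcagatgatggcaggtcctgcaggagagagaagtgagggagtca
Anxa11, chr14:25842049-25842249: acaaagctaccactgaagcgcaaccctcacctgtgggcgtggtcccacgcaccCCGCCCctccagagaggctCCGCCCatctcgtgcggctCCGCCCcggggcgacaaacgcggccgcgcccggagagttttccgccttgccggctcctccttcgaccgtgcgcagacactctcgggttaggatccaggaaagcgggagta
Egfr, chr11:16818931-16819131: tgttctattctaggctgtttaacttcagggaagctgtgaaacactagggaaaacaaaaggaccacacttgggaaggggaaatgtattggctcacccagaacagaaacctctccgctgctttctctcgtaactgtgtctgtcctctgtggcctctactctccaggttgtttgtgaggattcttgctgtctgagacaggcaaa
The closing regions at 4931440F15Rik and Cst6, shown next, were strong in WT PRO and had no peak in any DIFF library of either genotype. They were picked by rank among not retained regions with AP-1 letters, which 28.7% of not retained windows hold. They are therefore not typical of that set. The retained regions above come from a set picked by rank, promoter position or gene and not by motif, but not all of it is printed. Those left out, at Cdhr1, Bcl6b and E2f1, held no AP-1 letters.
4931440F15Rik, chr11:29839887-29840087: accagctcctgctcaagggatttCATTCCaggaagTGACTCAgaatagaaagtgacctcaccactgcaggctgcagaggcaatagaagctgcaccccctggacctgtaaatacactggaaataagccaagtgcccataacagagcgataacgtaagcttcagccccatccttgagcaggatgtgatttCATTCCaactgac
Cst6, chr19:5345471-5345671: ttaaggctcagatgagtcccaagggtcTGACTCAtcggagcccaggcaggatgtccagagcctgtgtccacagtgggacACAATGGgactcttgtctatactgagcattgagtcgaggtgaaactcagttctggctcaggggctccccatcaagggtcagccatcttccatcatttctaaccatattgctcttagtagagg

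The peak lists differed in length within groups as well as between them. On autosomes they held 74176 to 77843 peaks in WT PRO, 55973, 60062 and 86325 in WT DIFF, 81084 and 88750 in p27KO PRO, and 65398 and 71006 in p27KO DIFF. The third WT DIFF list was thus longer than either p27KO DIFF list, and the other two were shorter than both. The files give no read totals. The number of overlapping fragments at a summit, called the pile-up, could be worked back from the fold enrichment and the p-value. The peaks with the lowest p-values, 69 to 361 per list, were left out of this. Of the others, 99.99% to 100% in every list gave a whole number (tolerance 0.001 on the -log10 scale). The smallest pile-up called at the lowest background was 9 to 11. A peak over the body of Cdkn1b was present in 6 of 6 WT libraries and in 0 of 4 p27KO libraries, which bears on the genotype labels, since a free-text field of the p27KO samples speaks of WT cells while their genotype field says p27KO. Within 1 kb of the Cdkn1b start site, upstream sequence included, 8 of 10 libraries had a peak, both p27KO PRO libraries among them and neither p27KO DIFF library. Start sites of Sox2, Nes, Vim, Fabp7, Egfr and Olig2, markers of neural stem and progenitor cells, had a peak in all 10 libraries. Of 4 endothelial markers, Cldn5 had a peak in 1 library and Pecam1, Cdh5 and Tek in none. Among 4 microglial and 4 fibroblast or mural markers, P2ry12 and Col1a1 had a peak in all 10 libraries, Lum and Rgs5 in 2 each, and Csf1r, Cx3cr1, Aif1 and Col3a1 in none.

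The retained regions were mostly seen in 1 of the 2 p27KO DIFF libraries. p27KO DIFF 1 had a peak in 397 of the 929 and p27KO DIFF 2, the longer list, in 690, while 158 (17.0%) had a peak in both. Presence in one list went with presence in the other, since 39.8% of the closing regions with a peak in p27KO DIFF 1 also had one in p27KO DIFF 2, against 14.2% of those without. The rule did not use p27KO PRO. There, 760 retained regions (81.8%) had a peak in both libraries, 140 in 1 library and 29 (3.12%) in none. Of the closing regions that were not retained, 77.9% had a peak in both p27KO PRO libraries and 4.68% in none. By this measure most retained and most not retained regions were open in proliferating cells of either genotype. Read the other way, 23.3% (21.9 to 24.8) of closing regions with both p27KO PRO peaks were retained, 20.1% (17.2 to 23.3) of those with 1 and 16.2% (11.1 to 22.4) of those with none, and these intervals overlap. A total of 140 retained regions had a peak in all 7 libraries of WT PRO, p27KO PRO and p27KO DIFF.

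The peaks that remained in p27KO DIFF were weak. In WT PRO the median fold enrichment of the retained regions, a ratio of signal at the summit over local background, was 4.71, 4.71 and 4.39, or percentiles 36.7, 35.4 and 34.8 within the lists. The not retained regions had medians of 4.71, 4.76 and 4.27 in the same libraries, so both sets had similar strength before withdrawal. In p27KO PRO the retained regions had medians of 4.85 and 4.90, at percentiles 45.1 and 43.0. In p27KO DIFF those with a peak had medians of 3.57 and 3.69, at percentiles 18.1 and 15.5. Regions with a peak in all 6 WT libraries ranked far higher, with median percentiles of 70.3 and 72.3 in p27KO DIFF. A peak in these 2 libraries was therefore usually a low one, with a median pile-up of 13.0 in each.

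**Figure D1:**
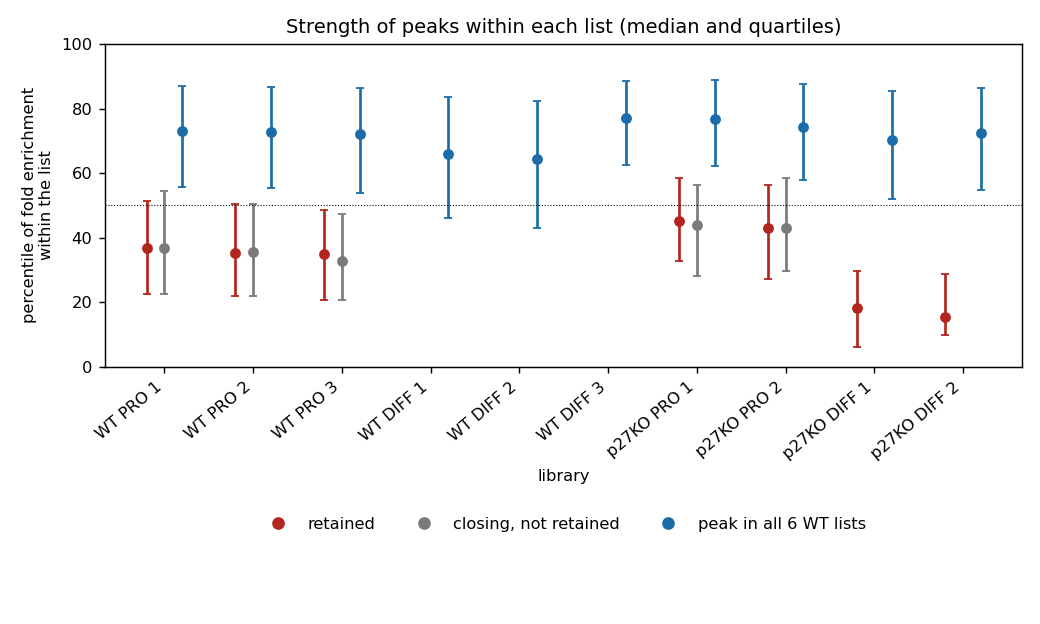
Percentile of fold enrichment within each list (y axis, 0 to 100) for the 10 libraries (x axis), with points at the median and bars from the lower to the upper quartile. Retained regions sit at 34.8 to 45.1 in the PRO lists and at 18.1 and 15.5 in p27KO DIFF, below regions with a peak in all 6 WT lists in every library where both are drawn.

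The smallest fold called at the lowest background was 2.75, 2.74 and 2.50 in the 3 WT DIFF lists and 2.77 and 2.80 in the p27KO DIFF lists. The share of closing regions that were retained did not follow strength in WT PRO, with 22.4%, 23.1% and 22.0% in the weakest, middle and strongest of 3 equal parts.

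The nearest p27KO DIFF summit of a retained region lay at a median of 32.0 bp from the median WT PRO summit. For 809 of 929 (87.1%) it was within 100 bp. Merging by overlap already keeps the summits of a region near one another. In p27KO PRO the median was 13.0 bp over the 900 regions with a peak. More of those had summits from both libraries to choose from, so these medians are not like for like. A separate WT DIFF peak lay within 1 kb of 13.2% of retained and 11.8% of not retained regions, so displaced wild-type peaks were about as frequent next to either set.

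The retained regions with the highest ranks across libraries lay away from promoters. The region 15.9 kb upstream of Fam169a (chr13:97051059-97051652, intergenic) had fold enrichments of 8.87, 9.39 and 11.7 in WT PRO, 12.4 and 12.3 in p27KO PRO, and 5.35 and 7.38 in p27KO DIFF. Both p27KO DIFF values lay under all PRO values, and there was no peak in WT DIFF. A region at chr5:45102706-45103013, whose nearest protein-coding start belongs to Ldb2, an adaptor of LIM-domain transcription factors, lies 303 kb upstream of it in an intron of D5Ertd615e. It gave 5.77, 5.42 and 5.64 in WT PRO, 7.31 and 6.78 in p27KO PRO, and 5.46 and 5.22 in p27KO DIFF. The p27KO DIFF values of this region overlapped those of WT PRO.

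An intron of Brinp2 (chr1:158310357-158311013), a gene of the BMP and retinoic acid-inducible neural family, held strong PRO peaks. Its fold enrichments were 16.5, 12.9 and 11.9 in WT PRO, 17.5 and 17.5 in p27KO PRO, and 6.37 and 4.54 in p27KO DIFF. Here p27KO DIFF was far under p27KO PRO, although a peak was still called. The intron of Cdhr1, a photoreceptor cadherin, fell in the same way, with 8.12, 8.42 and 6.59 in WT PRO, 8.16 and 8.19 in p27KO PRO, and 4.59 and 4.83 in p27KO DIFF.

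Near Sh3bgrl2 (chr9:83647783-83649091, intergenic) the values were 8.12, 6.87 and 6.36 in WT PRO, 7.19 and 8.55 in p27KO PRO, and 4.33 and 4.83 in p27KO DIFF. An intron of Irs2, which relays insulin and IGF signals, gave 6.89, 7.07 and 5.80 in WT PRO, 6.93 and 8.56 in p27KO PRO, and 4.32 in both p27KO DIFF libraries. In both regions the p27KO DIFF values lay under every PRO value. The region in an intron of Casc1, and those nearest Trmt10b, a tRNA methyltransferase, and Asah2, a neutral ceramidase, had p27KO DIFF values of 4.33 to 4.54. At Trmt10b these values lay under every PRO value. At Casc1 and Asah2 they lay above the 4.31 of WT PRO 2. An intron of Cers6 held the region nearest to Nostrin, which binds endothelial nitric oxide synthase. Its highest value was in p27KO DIFF 2 (6.53) and its lowest in p27KO DIFF 1 (4.08), with 4.31 to 5.13 in WT PRO. The Dsel region, named for a dermatan sulphate epimerase, reached 6.53 in p27KO DIFF 2 and 4.31 to 7.48 in WT PRO. An intron of Col6a6, a collagen VI chain, gave 5.35 and 4.54 in p27KO DIFF and 4.16 to 6.75 in WT PRO. For these last 3 regions p27KO DIFF and WT PRO overlapped.

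**Figure D2:**
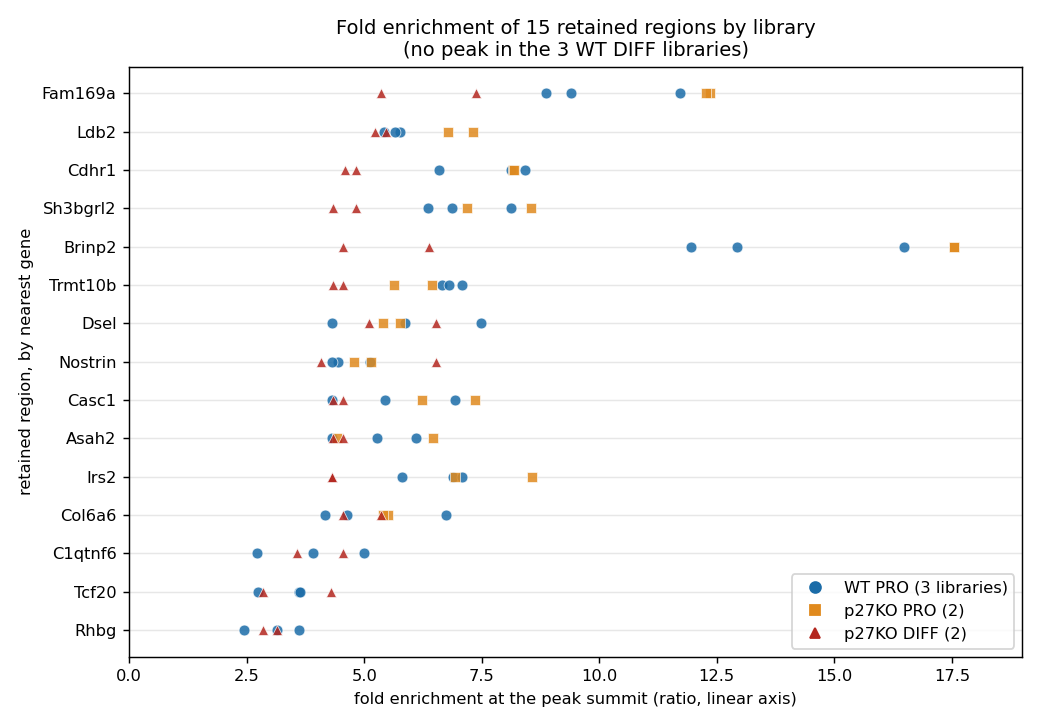
Fold enrichment at the summit (x axis, linear ratio) of the 12 highest-ranking retained regions with a peak in all 7 libraries of WT PRO, p27KO PRO and p27KO DIFF, and of the 3 with both p27KO DIFF peaks and no p27KO PRO peak (y axis, by nearest gene), with 1 point per library. Both p27KO DIFF triangles lie left of all PRO points for Fam169a, Cdhr1, Sh3bgrl2, Brinp2, Trmt10b and Irs2. In the other regions at least 1 triangle lies among or right of the PRO points.

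Only 3 retained regions had a peak in both p27KO DIFF libraries and in no p27KO PRO library. One lies in an intron of Rhbg, an ammonium transporter, and gave 3.61, 2.44 and 3.14 in WT PRO and 2.85 and 3.14 in p27KO DIFF. The second, 14.8 kb downstream of the start of C1qtnf6, gave 4.99, 2.72 and 3.90 in WT PRO and 3.57 and 4.54 in p27KO DIFF. The third was at the promoter of Tcf20, a transcriptional co-regulator, with 2.73, 3.60 and 3.62 in WT PRO and 2.85 and 4.30 in p27KO DIFF. All 3 were weak in every library, and WT PRO and p27KO DIFF overlapped in each.

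By position, 105 retained regions (11.3%) were at promoters (summit within 3 kb of a protein-coding start site), 58 (6.24%) in exons, 389 (41.9%) in introns and 377 (40.6%) between genes. The not retained regions had 9.18% at promoters, all 133147 regions 17.3%, and regions with a peak in all 6 WT libraries 35.9%. Retained regions thus shared the distal position of closing regions in general. The share retained was 26.3% (22.1 to 30.9) of closing promoters, 24.8% (19.4 to 30.8) of exonic, 21.0% (19.1 to 22.9) of intronic and 22.9% (20.9 to 25.0) of intergenic closing regions, with overlapping intervals. Their median width was 410 bp, close to the 398 bp of not retained regions and under the 838 bp of regions with a peak in all 6 WT libraries. Chromosome 1 had the highest share, with 98 of 325 closing regions retained (30.2%), and chromosome 16 the lowest, with 29 of 175 (16.6%).

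Of the 57 retained regions within 1 kb of a start site, the 6 highest-ranking with both p27KO DIFF peaks were those of Anxa11, Bcl6b, Chac1, Calhm6, Mcoln2 and Tcf20. The promoter of Anxa11, a calcium-dependent phospholipid-binding protein, gave 4.71, 3.63 and 5.61 in WT PRO, 4.79 and 3.67 in p27KO PRO, and 4.08 and 4.54 in p27KO DIFF. At Bcl6b, a zinc-finger repressor, the values were 7.56, 6.31 and 3.64 in WT PRO, 3.30 and 5.75 in p27KO PRO, and 3.86 and 4.86 in p27KO DIFF. In both promoters the 3 groups overlapped. At Chac1, a glutathione-degrading enzyme of the stress response, WT PRO gave 4.60 to 6.47 and p27KO DIFF 3.82 and 3.19, both under every PRO value. Mcoln2, a lysosomal cation channel, had 3.57 and 2.84 in p27KO DIFF against 4.30 to 6.57 in WT PRO. Calhm6, of the calcium homeostasis modulator family, had 3.06 and 5.40 against 4.15 to 6.37.

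The 929 regions had 870 nearest genes, of which 815 had 1 retained region, 51 had 2 and 4 had 3. Those with 3 were Ntm, a neuronal adhesion molecule of the IgLON family, Tenm3, a teneurin that guides synaptic partners, Btg1, an anti-proliferative protein, and Hmcn1, an extracellular matrix protein. The regions of a gene were far apart, with the 3 of Tenm3 lying 3.95 to 1420 kb upstream of its start. At Ntm 2 of the 3 were in its own introns and the third in an intron of its neighbour Opcml. None of these 12 regions had a fold over 5.40 in p27KO DIFF. Zfhx3, a homeobox and zinc-finger transcription factor, and Agbl1, a tubulin deglutamylase, followed with 2 each. The promoter region of Agbl1 gave 12.8, 15.4 and 10.5 in WT PRO, 11.7 and 15.1 in p27KO PRO, and 4.83 in p27KO DIFF 2 alone. It was thus among the strongest members before withdrawal and had 1 weak peak after it.

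Genes of 8 lists were looked up among the nearest genes. The lists covered Notch signalling, actin and serum response, glia, axon guidance and adhesion, the cell cycle, mitogen receptors, neural progenitor transcription factors and neuronal differentiation. Per 1000 merged regions of a list's genes, 4.84 (glia) to 8.33 (actin and serum response) were retained, against 6.98 over all genes, so every list was within a narrow range of the whole. Of a list's closing regions, 15.8% (actin and serum response) to 28.6% (Notch and glia, with 7 closing regions each) were retained, against 22.5% over all genes. Long neuronal genes have many regions, and 28.2% of the neuronal differentiation genes were nearest to a retained region against 4.20% of all genes at a density of 7.38 per 1000 regions.

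Among mitogen receptors and feedback regulators, 3 of 30 genes were nearest to a retained region. Per 1000 regions of this list 6.51 were retained, against 6.98 over all genes. The region nearest Egfr, the receptor for the EGF in the medium, lies in the gene body (chr11:16818582-16819191) and gave 3.54, 2.85 and 3.44 in WT PRO, 4.09 and 4.26 in p27KO PRO, and 3.06 and 3.49 in p27KO DIFF. The p27KO DIFF values overlapped WT PRO and lay under p27KO PRO. Spry2, which feeds back on ERK, had an upstream region with 6.14, 5.32 and 4.16 in WT PRO, 6.16 and 6.47 in p27KO PRO, and 4.08 and 3.12 in p27KO DIFF. The promoter region of Fgfr3, an FGF receptor, was weak throughout, with 2.83 to 3.28 in WT PRO and 3.24 in p27KO DIFF 2 alone.

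The cell cycle list held 2 genes of 40, with 5.95 retained per 1000 regions against 6.98 over all genes. A region 7.70 kb upstream of E2f1 (chr2:154577466-154577805), the transcription factor released when RB is phosphorylated, gave 6.37, 10.8 and 4.64 in WT PRO, 5.72 and 6.61 in p27KO PRO, and 3.06 and 4.26 in p27KO DIFF, the last 2 under every PRO value. The region assigned to Myc, a mitogen-induced transcription factor, lies 297 kb downstream in Pvt1 and had 3.32 to 3.42 in WT PRO and 4.08 in p27KO DIFF 1 alone. Both therefore rested on low peaks after withdrawal.

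Of 39 neural progenitor transcription factors, 8 were nearest to a retained region, namely Gli2, Hes1, Id1, Lhx2, Meis1, Sox11, Sox4 and Sp8. Per 1000 regions of this list 6.94 were retained, against 6.98 over all genes. Values are given here for Sp8, Sox4, Sox11 and Hes1 only. Sp8 is a zinc-finger factor of olfactory bulb interneurons. It alone of the 8 had a peak in both p27KO DIFF libraries (3.57 and 3.55, against 3.70 to 5.24 in WT PRO). Its summit lay 1.13 kb from the start site. The region assigned to Sox4 lies 346 kb from it and gave 7.76, 7.94 and 6.35 in WT PRO, 7.91 and 6.86 in p27KO PRO, and 4.84 in p27KO DIFF 1. The region assigned to Sox11 lies 378 kb from it, and its values were 7.48, 5.89 and 4.64 in WT PRO, 3.35 and 3.92 in p27KO PRO and 5.11 in p27KO DIFF 2. The region 91.1 kb from Hes1, a Notch effector, had no p27KO PRO peak and 3.69 in p27KO DIFF 2.

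In the Notch list 2 of 25 genes appeared, with 6.33 retained per 1000 regions against 6.98 over all genes. The region at the promoter of Dll4, a Notch ligand, gave 3.54, 2.94 and 3.47 in WT PRO, 3.23 and 4.24 in p27KO PRO and 4.12 in p27KO DIFF 2. Heyl, a transcriptional effector of Notch, had an upstream region with 4.56 to 5.19 in WT PRO and 4.54 in p27KO DIFF 2. Neuronal differentiation genes numbered 11 of 39, among them Celf4, Dscam, Gap43, Neurod6, Prox1, Robo2 and Snap25, and axon guidance and adhesion genes 10 of 40 (Cdh13, Dcc, Lama2, Nrp1, Nrp2, Pcdh7, Plxna1, Sema3d, Sema6d and Tnc). Per 1000 regions these lists had 7.38 and 6.16 retained, against 6.98 over all genes. Robo2, a Slit receptor, gave 5.82, 5.67 and 4.39 in WT PRO and 4.54 in p27KO DIFF 2, and Prox1, a homeobox factor of newborn neurons, 4.81, 7.06 and 3.66 in WT PRO and 5.11 in p27KO DIFF 2. An intron of Gap43, which encodes a growth cone protein, gave 6.09, 6.80 and 4.64 in WT PRO and 3.57 in p27KO DIFF 1. Tnc, an extracellular matrix protein of the neurogenic niche, was the only gene of these 2 lists with both p27KO DIFF peaks (3.44 and 3.80, against 2.56 to 4.08 in WT PRO). In the actin and serum response list Ccn2, Lats2 and Tgfb2 appeared, and Ccn2, a target of YAP and serum response factors, had 4.52 to 5.51 in WT PRO and 3.92 in p27KO DIFF 1.

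To see how many closing regions would show a peak in any further DIFF library, each WT DIFF list was held out in turn and closing was defined by the 3 WT PRO lists and the other 2 WT DIFF lists. Of 4500 regions so defined without WT DIFF 1, 8.16% had a peak in that list, against 11.2% in p27KO DIFF 1 and 19.2% in p27KO DIFF 2. Of 4421 defined without WT DIFF 2, 6.51% had a peak in it, against 10.7% and 18.3%. Of 9509 defined without WT DIFF 3, 56.5% had a peak in it, against 26.6% and 39.2%. The p27KO libraries thus lay above 2 of the wild-type libraries and under the third, and the shares followed list length, since WT DIFF 3 was the longest DIFF list.

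When every list was shortened to the 55973 peaks with the lowest p-values, the length of the shortest list, the spread narrowed. The held-out share was 17.4% in WT DIFF 1 against 17.7% and 20.5% in p27KO DIFF, 15.8% in WT DIFF 2 against 17.2% and 20.4%, and 29.1% in WT DIFF 3 against 24.2% and 28.5%. At equal length a wild-type library that did not define closing had a peak in about as many closing regions as p27KO DIFF 1, and WT DIFF 3 in more than either p27KO library. The comparisons share libraries and were not tested.

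**Figure D3:**
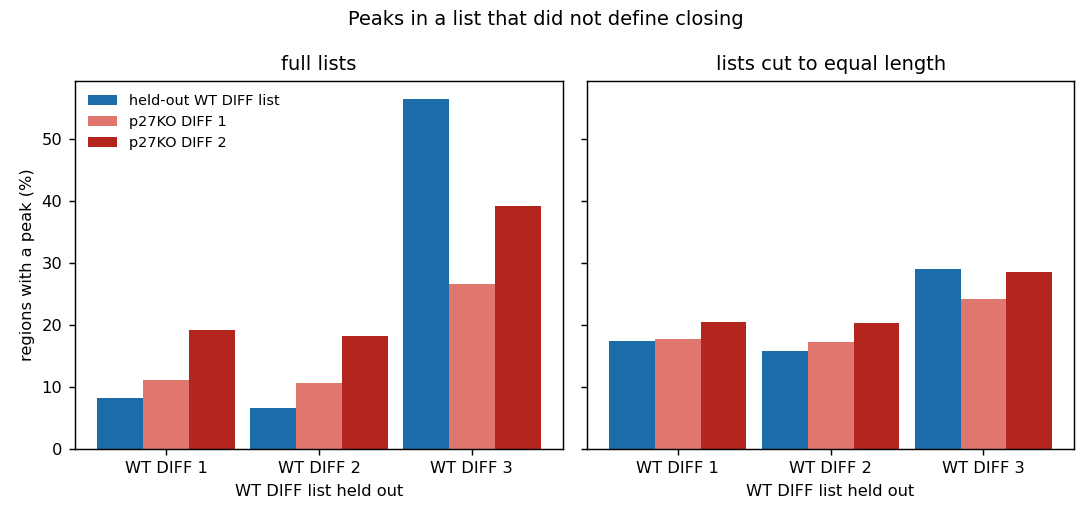
Percentage of closing regions with a peak (y axis) in the WT DIFF list that was held out and in both p27KO DIFF lists, by the list held out (x axis), for full lists (left) and lists cut to 55973 peaks (right), with 1 bar per list and no error bar. On full lists the held-out bar is the lowest for WT DIFF 1 (8.16%) and WT DIFF 2 (6.51%) and the highest for WT DIFF 3 (56.5%), and at equal length it spans 15.8% to 29.1%.

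The rule was also run with the genotypes exchanged, using 2 lists of each group. Forward, a region had a peak in 2 WT PRO lists, none in 2 WT DIFF lists and at least 1 in p27KO DIFF. In the mirror it had a peak in both p27KO PRO lists, in neither p27KO DIFF list and in at least 1 of 2 WT DIFF lists. On full lists the forward count was 5355 to 5613 in the 3 choices without WT DIFF 3 and 1319 to 1509 in the 6 choices with it. The mirror count was 1635 without WT DIFF 3 and 3987 and 4045 with it. As a share of the regions closing in the first genotype, forward was 43.6% to 45.6% without and 21.6% to 24.1% with that library, and mirror 15.6% without and 38.1% and 38.7% with it. Which direction was larger thus depended on a single library.

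At equal list length the forward counts were 2264 to 2297 without WT DIFF 3 and 1472 to 1591 with it, and the mirror counts 1281 without and 1412 and 1444 with it. Each forward count was above the mirror count with the same WT DIFF lists. As shares these were 36.6% to 37.9% forward against 25.2% in the mirror without WT DIFF 3, and 28.7% to 29.8% against 27.8% and 28.4% with it. The mirror regions resembled the retained ones, with 10.9% to 11.3% at promoters, median widths of 397 to 449 bp and median percentiles of 33.4 to 36.9 in p27KO PRO.

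**Figure D4:**
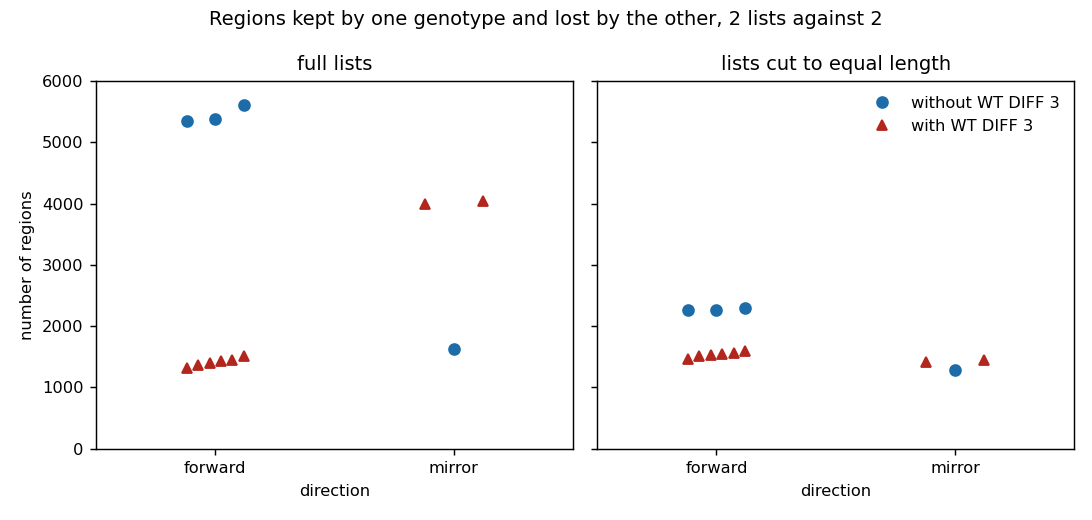
Number of regions (y axis) kept by one genotype and lost by the other (x axis: forward, kept in p27KO; mirror, kept in WT), with 1 point per choice of lists, for full lists (left) and equal lists (right). With full lists the points with WT DIFF 3 (triangles) are low forward (1319 to 1509) and high in the mirror (3987 and 4045), and at equal length all points lie between 1281 and 2297.

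The boundary of the set rested on that library too. A further 4020 regions met every condition but had a peak in exactly 1 WT DIFF library, and for 3657 of them (91.0%) that library was WT DIFF 3. Just inside the boundary, the weakest best p27KO DIFF peaks had -log10 q-values of 1.43 (Msc), 1.47 (Lama5) and 1.51 (Clrn2). Just outside it, the weakest single WT DIFF peaks had 1.37 (Nfe2l1), 1.37 (Prdm11) and 1.41 (another region near Dsel). These are the weakest peaks of each side, so their nearness to the calling threshold follows from the choice and supports nothing. Over all retained regions with a peak, the median -log10 q-value was 3.41 in p27KO DIFF 1 and 4.16 in p27KO DIFF 2. Without WT DIFF 3 the rule gave 4594 regions, and without p27KO DIFF 2 it gave 400.

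Of the motifs searched, AP-1 differed by the most percentage points between retained and not retained regions. AP-1 letters were found in 126 of 929 retained windows (13.6%, 95% exact binomial interval 11.4 to 15.9) and in 920 of 3204 not retained windows (28.7%, 27.2 to 30.3). Over all 96188 regions with a peak in at least 2 lists the share was 8.84%, and in regions with a peak in all 6 WT libraries 6.23%. Closing regions as a whole therefore held AP-1 letters more often than other regions, and the retained ones among them less often than the rest, though still above the whole. The intervals cover counting error over regions of the same libraries and are not a test over samples. Of 1817 regions with a peak in all 3 WT DIFF and in no WT PRO libraries, 4.46% held the letters.

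The difference in AP-1 letters was present at each level of strength, since retained against not retained windows held them in 10.4% against 21.0% in the weakest of 3 equal parts of WT PRO strength, 11.4% against 28.3% in the middle and 19.1% against 36.8% in the strongest. It was present at promoters (13.3% against 24.8%) and elsewhere (13.6% against 29.1%), and with 16.4% against 26.3% for a peak in p27KO DIFF 1 and 12.6% against 27.9% for p27KO DIFF 2. The same order was found without any p27KO library in the comparison. Of regions closing in the other 2 WT DIFF lists, 14.7%, 16.0% and 14.2% held AP-1 letters where the held-out list (WT DIFF 1, 2 and 3) had a peak, against 25.3% where it had none. In the mirror, 15.8% of p27KO closing regions with a WT DIFF peak held the letters against 21.9% of those without. Regions without AP-1 letters were thus more often still called in a further DIFF library of either genotype.

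**Figure D5:**
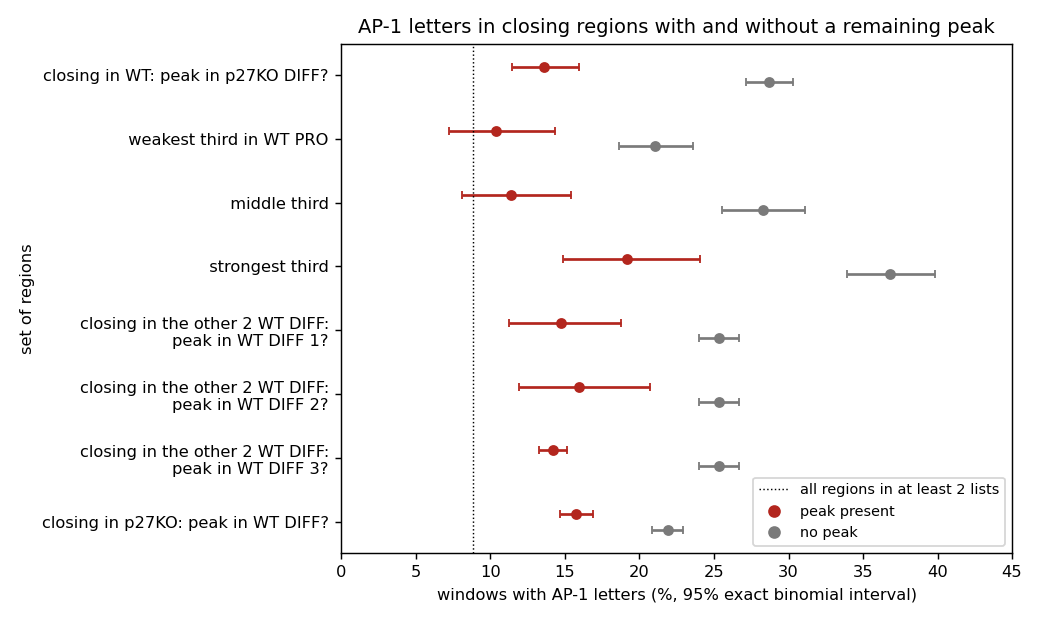
Percentage of 201 bp windows with AP-1 letters (x axis, with 95% exact binomial intervals) for sets of closing regions (y axis), with a peak in the further DIFF libraries (red) or without one (grey). The red points lie at 10.4% to 19.1% and the grey points at 21.0% to 36.8%, with the red point left of the grey in every set, also where the further library is wild type.

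The other 9 motifs showed smaller differences in percentage points. E-box letters were in 26.2% (23.4 to 29.1) of retained and 30.4% (28.8 to 32.1) of not retained windows, against 21.0% of all regions. For SOX the shares were 3.77% (2.64 to 5.20) and 5.37% (4.61 to 6.21), and for NFI half-sites 18.1% and 17.3%. E2F letters were in 2.37% (1.49 to 3.56) of retained and 1.44% (1.05 to 1.91) of not retained windows, and the intervals overlapped, as they did for SOX and the E-box. KLF/SP letters, frequent at CpG-rich promoters, were in 25.7% of regions with a peak in all 6 WT libraries and in 6.27% of not retained windows. Median GC content was 50.2% in retained and 49.8% in not retained windows.

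Ranks of fold enrichment were last compared across all 96188 regions in a limma fit on normal scores, where all regions without a peak in a list shared its lowest rank. A normal score places a list's ranks on a normal scale, and a difference is in units of that scale. The shared score of regions without a peak is lower in a longer list, so differences also depend on list length. Because presence in these lists chose the members, their values are a description. From PRO to DIFF in WT, 563 members (60.6%) were called lower at an adjusted p under 0.05, against 7.44% of all regions, with a member median of -0.90. In p27KO, 96 members (10.3%) were called, 93 of them lower and 3 higher, against 4.59% of all regions called lower, with a median of -0.38. The smaller change in p27KO follows from the rule and supports nothing.

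For the difference between genotypes in that change, the limma fit called 0 members and 16 regions in all (0.0166%). The members' median was 0.53, and 198 of them (21.3%) had an unadjusted p under 0.05, all with a smaller fall in p27KO, against 4383 of all regions (4.56%). For p27KO against WT at DIFF, limma called 0 members and 1 region in all (0.00104%), with a member median of 0.40 and 154 members (16.6%) at an unadjusted p under 0.05, all higher in p27KO, against 5033 of all regions (5.23%). In both contrasts the rule favoured this direction and small p-values among members, so these shares support nothing. The lowest adjusted p of a member was 0.238, shared by the regions nearest Fam169a (1.42 ± 0.23 SE), Ldb2 (1.24 ± 0.20) and Dsel (1.32 ± 0.24). The single region called at DIFF was the promoter region of Cdkn1b itself (chr6:134919805-134920945), with fold enrichments of 10.6 to 11.6 in WT PRO, 8.84, 9.32 and 12.3 in WT DIFF and no peak in any p27KO library. At PRO, limma called 0 members and 31 regions in all (0.0322%), with a member median of -0.07 and 72 members (7.75%) at an unadjusted p under 0.05, close to the 6.68% of all regions. Of these 72 only 6 were higher in p27KO. The rule asked for a peak in every WT PRO list, which favours lower values in p27KO. No region was thus called singly as retained by p27KO cells, and a p that misses the threshold does not show that ranks were equal. On simulated scores shifted by 1.5, more than the member medians, the fit recovered 0% for the difference between genotypes. At DIFF it recovered 25.5% to 30%.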

How the data were processed

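ATAC-seq peaks of 10 libraries were analysed. The authors trimmed paired reads with Cutadapt and Trimmomatic, aligned them to GRCm38 (mm10) with Bowtie2, flagged duplicate fragments (Picard) and ran MACS2 on each library for narrow peaks (no model, false discovery rate 0.05), without pooling replicates. Versions are not given in the sources used here. The deposited lists give peak positions, a summit, a fold enrichment (ratio) over local background and -log10 p-values and q-values, beside a score derived from the q-value, which was not used. They hold no counts, so a read-based differential test could not be run. The members, gene lists, markers and motifs were chosen with earlier results of these data known.

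Autosomal peaks overlapping by at least 1 bp were merged over all lists. Regions were annotated with GENCODE M21 by summit, and windows were read from GRCm38. The named regions are those with the highest lowest within-list percentile of fold enrichment in fixed classes (12 with a peak in every p27KO library, up to 4 with both p27KO DIFF and no p27KO PRO peak, 6 at core promoters, the 6 genes with most members, up to 2 per gene list); further members of the lists, and Sp8, Hes1, Tnc and Gap43 among them, were chosen after their values were seen. limma 3.58.1 (R 4.3.3) was fitted to normal scores with 1 mean per group and Benjamini-Hochberg adjustment. It was first run on simulated scores with 200 regions shifted in 1 DIFF group. At a shift of 1.5 it recovered 0% for the difference between genotypes and 25.5% to 30% at DIFF. At a shift of 3 it recovered 49% to 59% and 80% to 85%. False calls at DIFF were 6 of 57 and 7 of 67 at 1.5, and 22 of 182 and 14 of 184 at 3. Python 3.11.15, pandas 2.3.3, scipy 1.17.1 and pysam 0.24.0 were used. Intervals are exact binomial at 95%. Replicate numbers were checked as pairs, which did not settle whether same-numbered libraries belong together. Alternatives changed list length, threshold, merging, chromosomes, libraries, window and fit. Some genes are not reported here.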

Additional observations from a re-analysis of the deposited data

Results flagged for a closer look

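The change from PRO to DIFF differed between genotypes in 16 regions by the interaction term of the limma fit. None of the 16 was a retained region. Each had a peak in both p27KO PRO libraries and in no other library, and each was lower in p27KO DIFF relative to p27KO PRO than in WT, by 2.99 to 4.53 in normal scores. No gene group was read from them. Regions needed a peak in at least 2 libraries to be tested, so these passed only through the group where they are high, and the count of 0 without either p27KO PRO library in turn follows from that requirement.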

How the results depend on the processing

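Leaving out each library in turn gave 400 (without p27KO DIFF 2) to 4594 (without WT DIFF 3) retained regions, 9.66% to 48.2% of closing regions retained, 73.3% to 91.8% of them with every p27KO PRO peak, 10.4% to 13.2% at promoters, and AP-1 letters in 12.1% to 16.2% of retained and 24.0% to 28.7% of not retained windows. In the limma fit it gave 8402 to 13421 regions for WT, 2924 to 9165 for p27KO, 0 to 19 for their difference, 0 to 2 at DIFF and 0 to 44 at PRO. Where this left 1 library in a group, that library was assumed to vary like the others.

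At equal list length 24.1% of closing regions were retained, 76.5% of them with both p27KO PRO peaks and 17.1% with AP-1 letters, and the median mirror count was 1412, against 3987 on full lists. Requiring both p27KO DIFF lists gave 158 regions (3.82%), 88.6% with both p27KO PRO peaks and 16.5% with AP-1 letters. With start sites within 1 kb, 6.14% were at promoters. Windows of 50 bp to each side gave AP-1 shares of 7.64% and 20.3%, and of 200 bp 19.1% and 35.4% (retained, not retained). The AP-1 alternatives and the crossed block were added after seeing the data.

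Over regions in all 10 libraries, where no member remains, the fit called 4778 (WT), 2348 (p27KO) and 0 for each genotype contrast, over those in at least 5 libraries 0 for the difference and 4 at PRO, and by p-value ranks 6 for the difference. It called 29 at DIFF and 70 at PRO with X and Y, and 2 at DIFF at equal length. Whether numbers pair libraries was not settled. Among WT libraries alone each correlated best with its own number (r of 0.030 to 0.048). In p27KO, r was -0.111 for same-numbered and 0.111 for crossed libraries, which are opposites by construction with 2 libraries per group. With the replicate block 5 regions were called at DIFF (1 lower and 4 higher in p27KO) and 15 for the difference. With crossed p27KO DIFF numbers these counts were the same. No member was called for any genotype contrast in these fits. Only members whose region kept its coordinates could be looked up, 929 with either block but 566 at equal length. A stricter q-value and a merging overlap of 100 bp kept every count within 1.5 times. Counts of reads are not given, so depth limits weak peaks in a way that could not be measured.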
